A study of Mus musculus with 2 samples.

Results

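Ccl3 and Ccl4 encode a pair of small secreted chemokines, also known as macrophage inflammatory proteins 1 alpha and 1 beta. They are 2 of the 31053 genes listed in both deposited count matrices. The pair was chosen by its measured values: earlier results of these data had already shown a large ratio of the treated over the vehicle library for both genes. That ratio is therefore described here without a test and supports nothing further. The text turns on what the choice left out: which cells carried the transcripts, how many cells and how much per cell, and how the balance of the 2 genes differed between kinds of cell.

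Both chemokines act through G protein-coupled receptors of myeloid cells and T cells, of which Ccr1 binds Ccl3, and cells that carry these receptors move towards the source of the ligand. In myeloid cells both genes are classical early targets of NF-kB after Toll-like receptor ligation. Their transcripts carry AU-rich elements in the 3′ UTR, to which decay factors such as tristetraprolin (Zfp36) bind, so that the RNA is short-lived.

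Bone marrow cells of 129Sv mice had been grown into macrophages in 10% fetal bovine serum with 50 ng/ml macrophage colony-stimulating factor. On day 7 one culture received 1 µg/ml of truncated, non-polymerizing Tamm-Horsfall protein (THP, or uromodulin, a kidney protein) for 18 h, and the other received the 5% dextrose vehicle for the same time. Each was harvested, depleted of dead cells and made into 1 droplet library, in which RNA is captured by its poly(A) tail; a unique molecular identifier (UMI) counts each molecule and a barcode marks its cell. Values written as "with THP" and "with vehicle" are those of these 2 libraries. With 1 library per group no test was possible, and the treatment cannot be told apart from the culture dish or the library preparation. Every interval below covers counting error only.

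The kept cells numbered 12123 with THP and 10978 with vehicle, with a median of 16113 and 17223 UMIs per cell. They held 224825484 and 207662132 UMIs. The libraries shared 42 barcodes, 38 of them among kept cells, and without these the log2 ratios of the members were 2.39 for Ccl3 and 2.89 for Ccl4. The median log2 ratio of all 8012 genes at 10 CPM (counts per 1000000 UMIs) or more was −0.18, and 0.10 with TMM scaling factors. The cultures are labelled as macrophages. C1qa, a complement gene typical of macrophages, stood at 516 and 519 CPM in the class gated on macrophage genes. C1qa is one of the genes of that gate, so its level there follows from the gate. The class made up 22.3% of the THP cells and 13.9% of the vehicle cells, without cells that met an earlier gate. Among those was a Vsig4 and Cd209f class with higher median sums of the macrophage genes, at 40.2 and 56.7 per 10000 UMIs against 19.9 and 21.3. The rest were other myeloid cells, a few lymphoid and stromal cells, and cells below every cut.

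The genes are neighbours on mouse chromosome 11 in GRCm38. Ccl3 (ENSMUSG00000000982, chr11:83647844-83649355) is on the minus strand and Ccl4 (ENSMUSG00000018930, chr11:83662584-83664683) on the plus strand, 13228 bases apart and transcribed away from each other.

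The annotated GENCODE transcripts carry AU-rich elements in different numbers. Ccl3 has 409 bases of 3′ UTR with 5 copies of the ATTTA pentamer, the core of AU-rich elements, whereas Ccl4 has 302 bases with 2 copies. As many copies or more occurred in 0.999% of the 1802 annotated 3′ UTRs of similar length for Ccl3, and in 12.97% of 1634 for Ccl4. A window of 30 bases from each, read 5′ to 3′, shows the pentamers in capitals. A match is a description of the letters and not of a bound protein.

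Ccl3 3′ UTR window: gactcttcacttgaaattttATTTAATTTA

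Ccl4 3′ UTR window: ttcagatttcctgcccctcttcttaATTTA

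The RefSeq promoter table of GRCm38.p6 held 1 of the 2 genes, Ccl3. The window runs from 250 bases before to 50 after the RefSeq gene start, which lies 23 bases upstream of the GENCODE start of the gene given above (chr11:83649329-83649628, minus strand) and is shown because both genes moved together between the libraries; the capitals mark a TATAA element 11 bases before the RefSeq start and 34 before the GENCODE start.

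Ccl3 promoter: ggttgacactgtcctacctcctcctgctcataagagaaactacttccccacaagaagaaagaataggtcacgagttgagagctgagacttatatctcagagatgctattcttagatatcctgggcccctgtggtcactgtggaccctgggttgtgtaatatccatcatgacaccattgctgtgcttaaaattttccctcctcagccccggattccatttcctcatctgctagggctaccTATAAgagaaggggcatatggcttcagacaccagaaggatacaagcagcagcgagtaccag

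TATAA on the gene strand occurs in 17.5% of the 32851 promoters of the table. Searched on both strands as well were GGGNNNNNCC for NF-kB, TTGCNNAA for C/EBP and TGANTCA for AP-1, which occur in 50.8%, 10.8% and 7.81% of promoters. None of these letter patterns was in the Ccl3 window.

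Across all kept cells, Ccl3 stood at 184 CPM with THP (95% interval 183 to 186, from 41478 UMIs) and at 34.5 CPM with vehicle (33.7 to 35.3, from 7154 UMIs). Ccl4 stood at 229 CPM (227 to 231, from 51591 UMIs) and 30.2 CPM (29.5 to 31.0, from 6275 UMIs). The levels did not overlap within counting error for either gene. The ratio of CPM was 5.36 for Ccl3 (5.22 to 5.49) and 7.59 for Ccl4 (7.40 to 7.80), or 2.39 and 2.88 as log2 ratios of CPM + 1. Relative to the median gene these were 2.57 and 3.06, and with TMM factors they were again 2.57 and 3.07 above the median. Both genes passed a 2-fold rule at 10 CPM, as did 0.911% of the 8012 genes in the higher direction and 2.97% in the lower direction. By log2 ratio Ccl4 ranked 4 and Ccl3 ranked 7 among them, which is how the pair came to be chosen.

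The ratio splits into the share of cells with at least 1 UMI and the amount in those cells. For Ccl3, 56.0% of cells had a UMI with THP (55.2 to 56.9) and 23.7% with vehicle (22.9 to 24.5). Those cells held 6.11 Ccl3 UMIs on average with THP and 2.75 with vehicle. On the log2 scale the share contributed 1.24 and the amount 1.15, with 0.03 from the difference in mean depth.

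Ccl4 was found in fewer cells but at more UMIs per cell. In the THP library 42.1% of cells had a UMI (41.2 to 43.0), against 13.5% in the vehicle library (12.9 to 14.2). The positive cells held 10.1 and 4.22 UMIs on average. The share contributed 1.64 on the log2 scale and the amount 1.26. For both genes, then, more cells were positive and the positive cells held more, and the share was the larger of the parts.

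Shares depend on depth, so each cell was also thinned to 5000 UMIs, leaving out 1958 THP and 1966 vehicle cells with fewer. At that depth Ccl3 was found in 33.5% of THP cells and 8.80% of vehicle cells, with 2.47 and 1.58 UMIs per positive cell. Ccl4 was found in 29.0% and 5.84%, with 3.54 and 2.09 UMIs per positive cell. The libraries differed in both parts at equal depth too.

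Both genes were unevenly spread over cells. If every UMI of a library had the same chance of being Ccl3, 83.9% of the THP cells and 42.5% of the vehicle cells would have had one, against the 56.0% and 23.7% measured. For Ccl4 the figures were 87.1% and 39.0%, against 42.1% and 13.5%. The 1% of cells richest in Ccl3 held 18.6% of its UMIs with THP and 30.3% with vehicle. For Ccl4 they held 22.9% and 48.8%. Such a share rises as the mean count per cell falls, even where a gene is spread evenly. The vehicle library had the lower counts, so these shares cannot tell in which library the transcripts were more concentrated. A vehicle cell with at least 10 Ccl4 UMIs was uncommon, at 1.25% of cells (1.05 to 1.47), and such cells made up 11.7% of the THP library (11.2 to 12.3). The richest cell of all held 360 Ccl4 UMIs and lay in the THP library, where the highest Ccl3 count was 279.

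**Figure D1:**
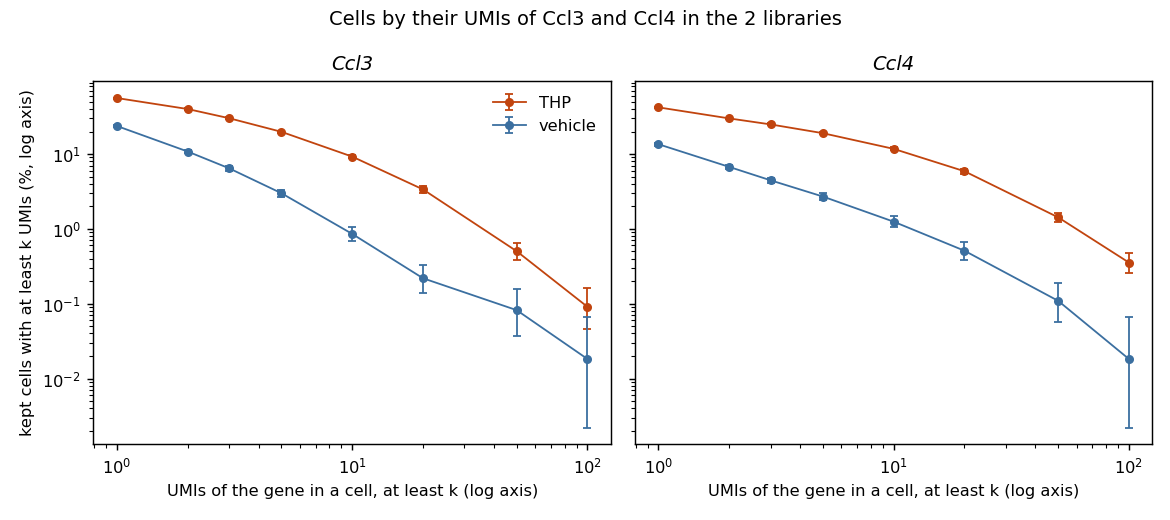
Share of kept cells (log axis, %) with at least k UMIs of Ccl3 (left) or Ccl4 (right) against k (log axis); points are the THP and vehicle libraries at the cells' own depth and bars exact binomial 95% intervals. The THP curve lies above the vehicle curve at every k, from 56.0% against 23.7% at 1 UMI for Ccl3; at 100 UMIs the Ccl3 intervals overlap.

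Over all cells of a library, and in macrophage-like cells, the same cells tended to hold both transcripts. In the THP library at 5000 UMIs per cell, Ccl4 was found in 49.7% of Ccl3-positive cells and in 18.7% of Ccl3-negative cells. The vehicle library gave 18.7% and 4.60%. Within macrophage-like cells alone the THP shares were 69.1% and 33.8%, and the vehicle shares were 34.3% and 9.38%. Of the 5% of THP cells richest in each gene, 39.6% were in both sets at that depth, against 22.2% in the vehicle library. Co-detection therefore held inside 1 class, though a large part of the positive cells had only 1 of the 2 genes.

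To ask which cells carried the pair, cells were placed in 14 classes by the summed UMIs of marker genes per 10000 UMIs. Gates were applied in a fixed order, and a cell took the first class whose gate it met. The remaining cells are called unclassified. Such classes are ranges of a score rather than cell types, and names ending in -like follow the markers. The mature neutrophil-like class needed at least 20 UMIs per 10000 from Retnlg, Cxcr2, Mmp8, Mmp9 and Il1r2 together. It also needed at least 500 per 10000 from S100a8 and S100a9 together. In this class 5.19% of THP and 3.60% of vehicle cells lay within 20% above the first cut. In the macrophage-like class, set by C1q genes, Adgre1, Mertk and Mrc1, the figures were 14.0% and 13.8%. The median summed score of macrophage genes in the mature neutrophil-like class was 0 in both libraries. Cells with abundant S100a8 and S100a9 that met neither neutrophil gate were kept apart and are named by those 2 genes.

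Free RNA in droplets gives a few UMIs of any abundant transcript to every cell, so the stromal-like and B cell-like classes served as background. Stromal-like cells (75 THP and 69 vehicle cells, median depth 20305 and 39484 UMIs) held Ccl3 at 32.0 and 5.20 CPM and Ccl4 at 42.5 and 14.9 CPM. B cell-like cells (99 and 64 cells, median depth 1981 and 3150 UMIs) held Ccl3 at 39.5 and 11.0 CPM, the vehicle value from 3 UMIs. They held Ccl4 at 25.4 CPM with THP and at 0 UMIs with vehicle, where the interval reaches 13.6 CPM. A class was read as above background where the lower end of its interval exceeded the higher of these 2 levels in its library. That rule leaves out the counting error of the background itself. In vehicle B cell-like cells the Ccl3 interval is 2.28 to 32.3 CPM. It covers vehicle Ccl3 in macrophage-like, Vsig4 and Cd209f, MHC class II high, immature neutrophil-like, progenitor-like and monocyte-like cells, at 15.0 to 31.5 CPM. The interval of vehicle stromal-like Ccl4, 10.8 to 20.1 CPM, covers the 18.7 CPM of MHC class II high cells. By the rule, Ccl3 was above background in both libraries in 11 of 13 other classes, and Ccl4 in 7 of 13. The T or NK cell-like and dendritic cell-like classes failed this for both genes. Ccl4 failed it also in immature neutrophil-like, myeloid progenitor-like, monocyte-like and S100a8 and S100a9 high cells, in at least 1 library, so no fold of Ccl4 is read there.

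Mature neutrophil-like cells had the highest Ccl3 level in CPM, that is per UMI, of the classes with 200 or more cells, in both libraries. Their Ccl3 level was 728 CPM with THP (699 to 756, 1041 cells) and 257 CPM with vehicle (241 to 273, 1306 cells), a ratio of 2.83 (2.63 to 3.05). Ccl4 in the same cells stood at 136 CPM (124 to 149) and 30.0 CPM (24.9 to 35.8), a ratio of 4.53. These cells hold little RNA, with a median of 2474 and 2381 UMIs, so that their high share of transcripts amounted to 3.86 and 2.09 Ccl3 UMIs in a positive cell. A positive osteoclast-like cell held more on average, at 8.65 and 6.84 UMIs, though the medians were 3 and 2 in both classes. A positive immature neutrophil-like cell held fewer on average, at 2.62 and 1.58. With each cell thinned to 2000 UMIs, Ccl3 was found in 49.9% of THP and 25.3% of vehicle mature neutrophil-like cells. No other class of that size exceeded 25.8% in the THP library or 8.18% in the vehicle library at this depth. The rank depends on the gate, which had separate cuts for S100a8 and S100a9 and for the other 5 markers. In a variant, the cut on the 5 was replaced by 500 per 10000 UMIs on the sum of all 7, with the S100a8 and S100a9 cut kept. Every cell past the S100a8 and S100a9 cut meets that sum, so the other 5 markers decided nothing and the gate took in more cells. Immature neutrophil-like and S100a8 and S100a9 high cells were then no longer classes of their own. The class, then set in effect by S100a8 and S100a9 alone, stood at 191 and 56.6 CPM of Ccl3, below the 237 and 80.7 CPM of osteoclast-like cells.

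Depth moved with the Ccl3 level inside this class, and its part in the level was not tested. The count per cell moved less below 10000 UMIs. In THP cells of 1000 to 2000, 2000 to 5000 and 5000 to 10000 UMIs it was 2.54, 2.12 and 3.27 Ccl3 UMIs. In vehicle cells of the same depths it was 0.98, 0.67 and 0.71. Cells under 5000 UMIs held Ccl3 at 924 CPM with THP and 331 with vehicle, and those at 5000 or more held it at 387 and 81.7 CPM. Since cells this shallow weigh little in a sum over UMIs, they weigh more in a mean over cells: averaged with equal weight per cell, Ccl3 stood at 266 and 90.7 CPM, of which this class supplied 31.7% and 50.0%. The log2 ratio of those means was 1.54, against 2.39 for the sums. For Ccl4 the equal-weight means were 205 and 30.1 CPM, with a log2 ratio of 2.73.

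The earlier stages of the neutrophil line had far less Ccl3 per UMI. Per positive cell the gap was smaller. A positive myeloid progenitor-like cell, from a class with median depths of 17690 and 21147 UMIs, held 3.39 and 1.85 Ccl3 UMIs. A positive mature neutrophil-like cell held 3.86 and 2.09. Immature neutrophil-like cells, set by secondary granule genes such as Ngp, Ltf and Camp, had Ccl3 at 81.7 CPM with THP (76.0 to 87.8) and 22.2 CPM with vehicle (19.7 to 24.9). Myeloid progenitor-like cells, set by primary granule genes such as Mpo and Elane, had 72.3 (68.9 to 75.8) and 15.0 CPM (13.7 to 16.3). The S100a8 and S100a9 high cells lay between these and the mature class, at 222 (208 to 236) and 50.8 CPM (44.1 to 58.1). In each library the order of Ccl3 was mature neutrophil-like, S100a8 and S100a9 high, immature neutrophil-like and progenitor-like, and in the THP library the last pair differed by little more than the counting intervals. Among cells under 5000 UMIs the first pair changed places, with Ccl3 at 1291 and 458 CPM in S100a8 and S100a9 high cells against 924 and 331 CPM in mature neutrophil-like cells. Ccl4 was at 37.2 and 6.04 CPM in immature neutrophil-like cells and at 44.7 and 5.81 CPM in progenitor-like cells, at or below the stromal-like level.

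Mast cell or basophil-like cells, led by the basophil proteases Mcpt8 and Prss34, were few but rich in Ccl3. Their Ccl3 level was 749 CPM with THP (675 to 830, 61 cells) and 288 CPM with vehicle (249 to 332, 53 cells), 2.60 times higher with THP (2.18 to 3.12). Ccl4 was 97.7 CPM (72.1 to 130) and 93.0 CPM (71.3 to 119), and the interval of that ratio, 0.71 to 1.56, includes 1. This was the only class above background in both libraries in which the Ccl4 intervals overlapped. The gated cells differed between the libraries: Mcpt8 stood at 8208 and 2597 CPM, and the median marker sum was 294 and 62.2 per 10000 UMIs. Whether that difference bears on the chemokine values was not tested.

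Macrophage-like cells showed the steepest Ccl3 ratio of the classes above background by the rule given. The vehicle level behind that ratio lay inside the counting interval of the B cell-like background, 2.28 to 32.3 CPM. Ccl3 was 194 CPM with THP (191 to 197, 2701 cells) and 20.7 CPM with vehicle (19.3 to 22.1, 1527 cells), a ratio of 9.37 (8.74 to 10.1). Ccl4 was 335 CPM (330 to 339) and 42.2 CPM (40.2 to 44.2), a ratio of 7.94 (7.56 to 8.34). The class supplied 33.1% of the Ccl3 UMIs and 45.9% of the Ccl4 UMIs of the THP library, from 22.3% of its cells. In the vehicle library it supplied 11.7% and 27.1%. Here the share of positive cells was 2.94 times higher for Ccl3 and the amount per positive cell 3.16 times higher. At 2000 UMIs per cell the vehicle share of Ccl3, 3.77%, was no higher than the 3.92% of B cell-like cells, which rests on 51 cells, so the vehicle share at that depth is not read as expression.

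The Vsig4 and Cd209f macrophage-like class, resembling resident tissue macrophages by its markers, gave a similar picture. Ccl3 was 168 CPM with THP and 19.8 CPM with vehicle, a ratio of 8.49 (7.21 to 10.1). Ccl4 was 324 CPM (313 to 336) and 51.9 CPM (47.1 to 57.2), a ratio of 6.24 (5.63 to 6.93). Of these cells 23.0% and 19.7% lay near the cut, so the class grades into the macrophage-like one. With the cut doubled, Ccl4 stood at 148 and 28.6 CPM in the Vsig4 and Cd209f class and at 339 and 42.8 CPM in macrophage-like cells.

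Osteoclast-like cells, set by Atp6v0d2, Mmp12, Ctsk and Dcstamp among others, held the most Ccl4 in the vehicle library among the classes with 200 or more cells. Their Ccl4 level was 195 CPM with THP (188 to 202) and 62.7 CPM with vehicle (59.3 to 66.4). Ccl3 was 237 CPM (229 to 244) and 80.7 CPM (76.8 to 84.8). The ratios, 3.11 (2.91 to 3.32) for Ccl4 and 2.93 (2.76 to 3.11) for Ccl3, were below those of the macrophage-like classes without overlap of the intervals. From 5.62% of the vehicle cells this class supplied 21.9% of all vehicle Ccl3 UMIs and 19.4% of the Ccl4 UMIs. In the THP library it supplied 9.24% and 6.13%. The vehicle levels of the class, and so its ratios, rest on few cells. The 1% of its vehicle cells richest in the gene held 35.8% of the class's Ccl3 UMIs and 40.4% of its Ccl4 UMIs. The richest 10% held 82.1% and 86.2%. A vehicle cell of this class that was positive for Ccl3 held 6.84 UMIs on average, but 2 at the median. That mean was the highest of the large classes, and the THP mean was 8.65. With cells thinned to 2000 UMIs the order turned, at 1.88 UMIs with vehicle and 1.80 with THP.

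Monocyte-like cells had Ccl3 at 202 CPM with THP (194 to 209) and 31.5 CPM with vehicle (29.3 to 33.8), and Ccl4 at 133 and 15.8 CPM, the latter 69.6 and 7.77 CPM with the cut doubled. MHC class II high cells had Ccl3 at 160 and 20.1 CPM and Ccl4 at 149 and 18.7 CPM, with ratios of 7.99 and 7.98. Unclassified cells, 20.5% of the THP and 13.8% of the vehicle library, had Ccl3 at 194 and 32.8 CPM and Ccl4 at 274 and 46.4 CPM. T or NK cell-like cells, which can make both chemokines, had Ccl3 at 49.1 and 7.05 CPM and Ccl4 at 77.0 CPM (62.2 to 94.2) and 6.47 CPM. Only the THP level of Ccl4 was above background by the rule. In that level 1 cell held 52 of the 94 UMIs, so it is not read as a level of the class. Both genes were thus higher in the THP library in all 15 groups of cells, unclassified cells and background classes included, with 1 interval, that of Ccl4 in mast cell or basophil-like cells, spanning both directions among the classes above background. Counted by class and gene, 30 of 30 pairs were higher, as were 24 of 24 with the cuts doubled and 24 of 24 at 5000 UMIs per cell. The pair was chosen for this direction, and the classes of a group share 1 library, so these counts are no independent evidence. They include pairs at background, such as Ccl4 in dendritic cell-like cells, where the interval of the ratio was 0.70 to 39.6.

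**Figure D2:**
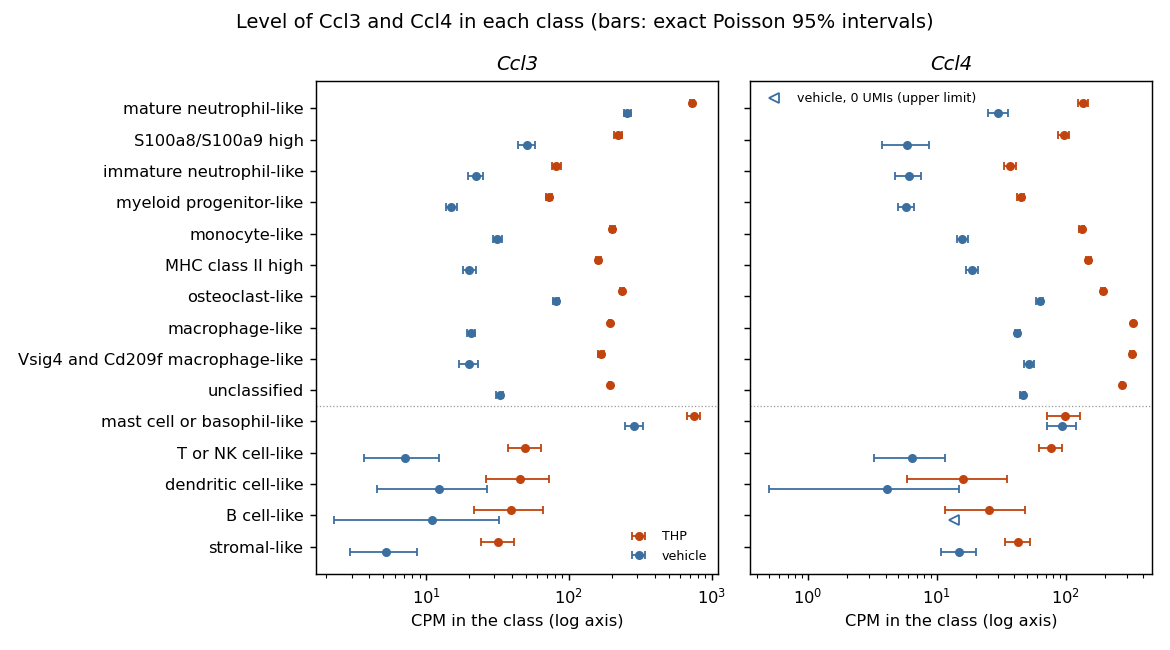
Level of Ccl3 (left) and Ccl4 (right) in each class in CPM (log axis); points are the THP and vehicle libraries, bars exact Poisson 95% intervals, the open triangle the upper limit where no UMI was found, and the dotted line separates classes of 200 or more cells from smaller ones. Ccl3 is highest in mature neutrophil-like (728 and 257 CPM) and mast cell or basophil-like cells (749 and 288 CPM), and Ccl4 in the THP library in macrophage-like cells (335 CPM).

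Because the mix of classes differed between the libraries, the values were also computed with the vehicle library's mix in both. The log2 ratio was then 2.33 for Ccl3 and 2.60 for Ccl4, and the difference in the share of positive cells was 29.7 and 22.0 percentage points, against 32.3 and 28.6 with each library's own mix. The amount per positive cell, as mean UMIs of the gene per 10000 UMIs, was 4.74 with THP and 3.83 with vehicle for Ccl3, a log2 ratio of 0.31. With the same mix that log2 ratio was 0.64. For Ccl4 it was 4.87 and 2.22 UMIs per 10000, and 1.13 and 1.12 before and after. On this scale the amount of Ccl3 per positive cell thus differed less than that of Ccl4.

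**Figure D3:**
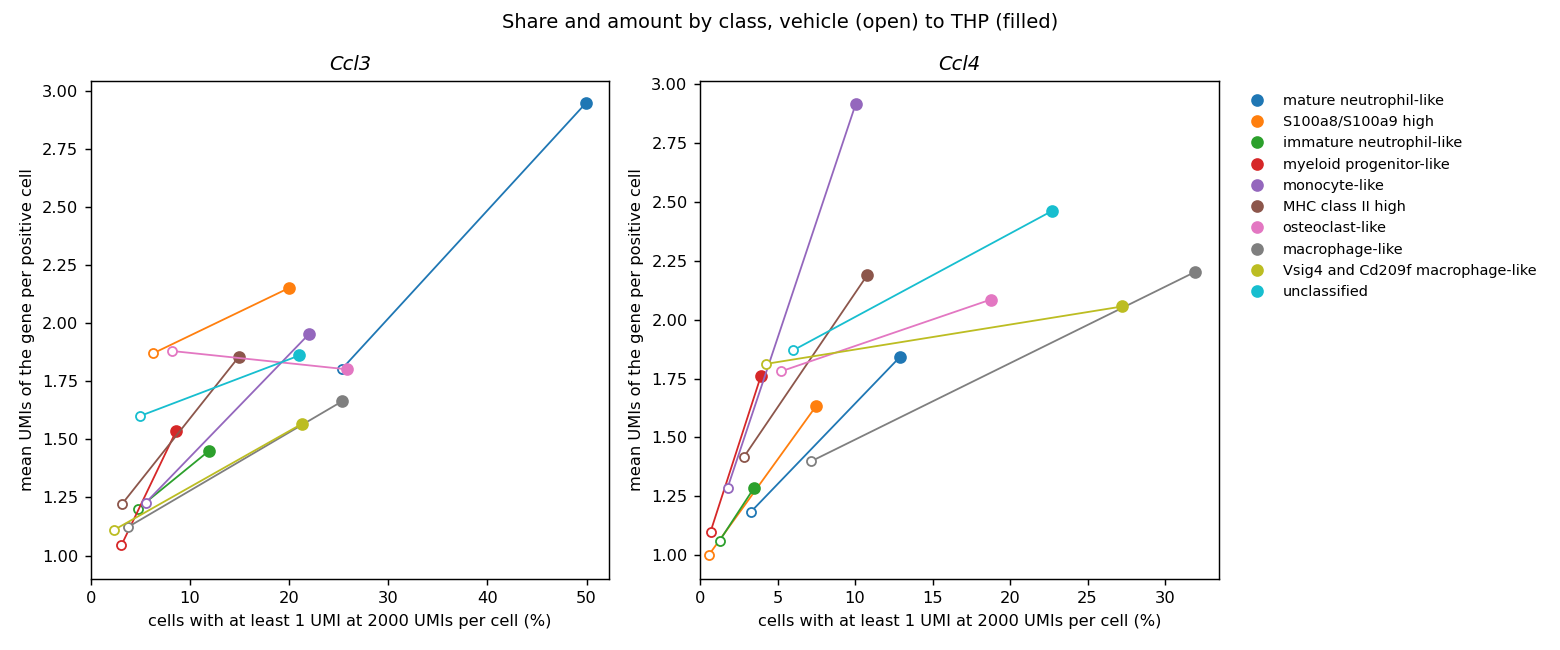
Share of cells with at least 1 UMI (%) against mean UMIs of the gene per positive cell, for Ccl3 (left) and Ccl4 (right), each cell thinned to 2000 UMIs; lines join the vehicle value (open) to the THP value (filled) of each class with 200 or more cells. Every line runs to the right, and mature neutrophil-like cells reach 49.9% positive for Ccl3; the amount of Ccl3 in osteoclast-like cells is the 1 line that does not go up, from 1.88 to 1.80 UMIs.

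The balance of the pair differed between classes far more than between libraries. Ccl4 made up 55.4% of the Ccl3 and Ccl4 UMIs of the THP library (55.1 to 55.8) and 46.7% of those of the vehicle library (45.9 to 47.6). In macrophage-like cells it made up 63.3% (62.8 to 63.8) and 67.1% (65.2 to 68.9), and in the Vsig4 and Cd209f class 65.9% (64.5 to 67.2) and 72.4% (68.5 to 76.0). In mature neutrophil-like cells it made up 15.7% (14.5 to 17.1) and 10.5% (8.75 to 12.4). Mast cell or basophil-like cells gave 11.5% (8.63 to 15.0) and 24.4% (19.3 to 30.2).

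In immature neutrophil-like cells Ccl4 made up 31.2% and 21.4%, in progenitor-like cells 38.2% and 27.9%, and in monocyte-like cells 39.8% and 33.4%. Osteoclast-like cells gave 45.2% and 43.7%, MHC class II high cells 48.2% and 48.2%, and unclassified cells 58.6% and 58.5%. The S100a8 and S100a9 high cells gave 30.3% with THP and 10.3% with vehicle, the latter as low as in vehicle mature neutrophil-like cells. Scaled by transcript length (766 bases for Ccl3 and 660 for Ccl4), Ccl4 was 66.7% of the pair in THP macrophage-like cells and 17.8% in THP mature neutrophil-like cells, so the more abundant gene was Ccl4 in the former and Ccl3 in the latter. Of single cells with at least 5 UMIs of the pair, 57.4% of THP mature neutrophil-like cells (216 cells) had no Ccl4 UMI at all, against 2.55% of THP macrophage-like cells (1413 cells). Over the classes above background in the THP library the share of Ccl4 ran from 11.5% to 65.9%.

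Between the libraries the balance moved in opposite directions in different classes. The Ccl4 share was higher with THP in mature neutrophil-like, S100a8 and S100a9 high, immature neutrophil-like, progenitor-like and monocyte-like cells, and lower in both macrophage-like classes and in mast cell or basophil-like cells. In each of these the binomial intervals of the libraries did not overlap. In MHC class II high, osteoclast-like and unclassified cells they overlapped. In the immature neutrophil-like, progenitor-like, monocyte-like and S100a8 and S100a9 high cells Ccl4 was at background in at least 1 library, and the part of free RNA in their shift was not tested. Stromal-like cells, the background, gave 57.0% in the THP library (48.2 to 65.5), close to the 55.4% of all cells.

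**Figure D4:**
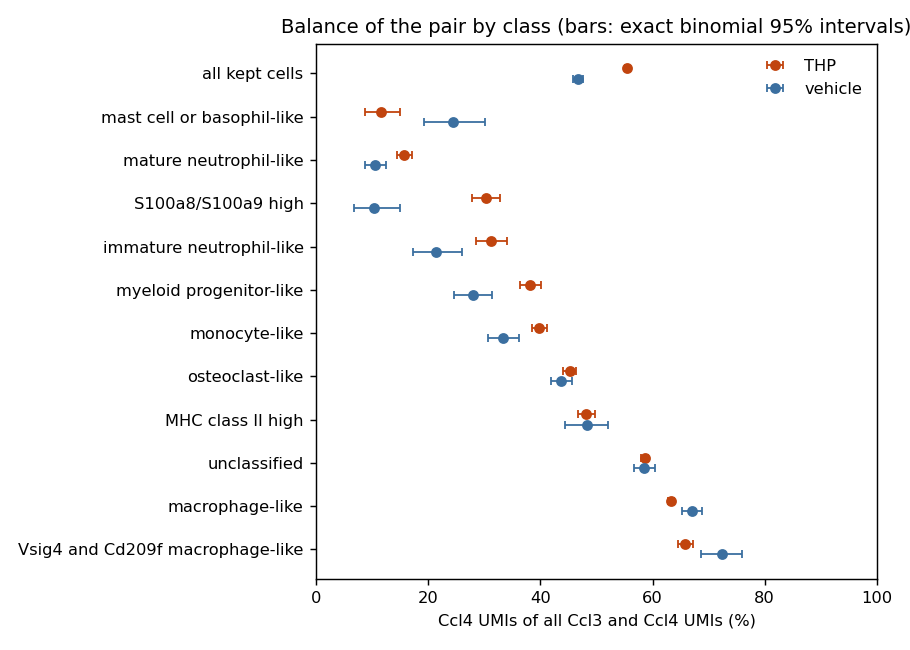
Ccl4 UMIs as a share of all Ccl3 and Ccl4 UMIs (%) in all kept cells and in each class; points are the THP and vehicle libraries and bars exact binomial 95% intervals. Mast cell or basophil-like and mature neutrophil-like cells lie between 10.5% and 24.4%, and macrophage-like classes between 63.3% and 72.4%.

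The receptor genes reported here did not move one way. Of the receptor and decoy receptor genes at 10 CPM or more, 1 of 3 was at least 2-fold higher in the THP library and 1 of 3 at least 2-fold lower, against 0.911% and 2.97% of all genes tested. Ccr1, a receptor of Ccl3, was 67.7 CPM with THP (66.6 to 68.8) and 147 CPM with vehicle (146 to 149), a log2 ratio of −1.11 that TMM factors brought to −0.83, inside the 2-fold bounds. Ccrl2, an atypical receptor that does not signal through G proteins, was 15.6 and 5.72 CPM, a log2 ratio of 1.31. Ackr2, a decoy receptor for inflammatory chemokines, had 0 UMIs in both libraries.

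By class, Ccr1 in CPM, that is per UMI, was highest in mature neutrophil-like cells, at 276 CPM with THP and 432 with vehicle. It stood at 17.3 and 55.9 CPM in macrophage-like cells. The rank did not hold per cell. The 1041 THP and 1306 vehicle mature neutrophil-like cells held 959 and 1745 Ccr1 UMIs. The 856 and 1199 monocyte-like cells held 2592 and 6900. With the same gate the mature neutrophil-like class also had the highest Ccl3 level in CPM among the large ones. Ccr1 was not computed with the gate set in effect by S100a8 and S100a9 alone.

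Among other CC chemokines of the same receptor axis, 1 of the 4 at 10 CPM or more passed the 2-fold rule: Ccl7, a monocyte chemokine, at 276 and 71.3 CPM. Ccl9 was 651 and 480 CPM and Ccl6 was 275 and 271 CPM, log2 ratios of 0.44 and 0.02. Both lie on the same side of the locus as Ccl3. Ccl5, a chemokine of T cells and monocytes, was 12.6 and 14.6 CPM, a log2 ratio of −0.21 that turned to 0.06 with TMM factors. Ccl11 had 0 UMIs in both libraries. High Ccl3 and Ccl4 were therefore not shared by all CC chemokines of this list.

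The neighbours on the chromosome differed from the pair too. Within 100 kb of either gene the annotation holds 14 other genes, of which 7 were in the matrices and none overlapped a member. Wfdc17, a whey acidic protein family gene, was 55.7 CPM with THP and 21.0 with vehicle, a log2 ratio of 1.37. Wfdc18 was found at 86 and 21 UMIs, and Rpl9-ps1 at 6 and 5. Wfdc21 was 255 and 267 CPM and Heatr6 was 35.9 and 36.6 CPM. Apart from Wfdc17, no neighbour at 10 CPM reached 2-fold.

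Genes that act upstream moved unevenly. Of 10 receptors and adaptors tested, 2 were at least 2-fold higher and 1 at least 2-fold lower: Tlr2 was 90.9 and 31.0 CPM, its partner Cd14 was 893 and 310 CPM, and Tlr4 was 11.0 and 24.1 CPM, the last within the 2-fold bounds with TMM factors at −0.80. Of 15 transcription factors and inhibitors, 5 were at least 2-fold higher and 1 lower, and 7 and 0 with TMM factors. Of all genes tested, 0.911% were higher and 2.97% lower by that rule without TMM factors. The 5 were all in the NF-kB system, but the list was rich in such genes, with Nfkb1, Rel and Rela on it as well. The genes added with TMM factors, Junb and Cebpb at log2 ratios of 1.11 and 1.14, were not of that system. Nfkb2 stood at 57.3 and 19.6 CPM and Relb at 53.6 and 21.2 CPM, both subunits of the noncanonical pathway. The inhibitor Nfkbia stood at 337 and 115 CPM, the atypical inhibitor Nfkbiz at 46.8 and 11.5 CPM and the ubiquitin-editing enzyme Tnfaip3 at 18.4 and 7.35 CPM. Rela, the main canonical subunit, was 46.2 and 36.0 CPM, a log2 ratio of 0.35. Fosb was lower, at 5.47 and 13.6 CPM.

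Of 6 decay and stability factors, 1 passed, Zc3h12a (regnase-1), at 18.6 and 8.26 CPM. Zfp36, whose protein binds AU-rich elements, was 72.0 and 48.7 CPM, a log2 ratio of 0.55. Its relative Zfp36l2 was 103 and 191 CPM, a log2 ratio of −0.89. Of 13 genes of receptor signalling, 1 was higher, the phosphoinositide 3-kinase subunit Pik3r5, at 60.3 and 23.6 CPM, and 12 of the 13 fell within the 2-fold bounds. The sign of Gnai2, Arrb1, Grk2 and Pik3cg in this list turned with TMM factors.

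Other inflammatory cytokines and chemokines stood apart from these lists, with 7 of 8 at least 2-fold higher and none lower, and a median log2 ratio of 2.22 against −0.18 for all genes. Tnf was 117 and 18.9 CPM, a log2 ratio of 2.56, and Il1b was 67.3 and 9.58 CPM, or 2.69. Cxcl1, a neutrophil chemokine, was 54.3 and 5.50 CPM, or 3.09. Ccl2, a monocyte chemokine, was 927 and 471 CPM, or 0.97, and passed with TMM factors at 1.26. The members lay within the range of this list. The list was chosen with earlier results of these data known, so its count is no independent evidence.

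**Figure D5:**
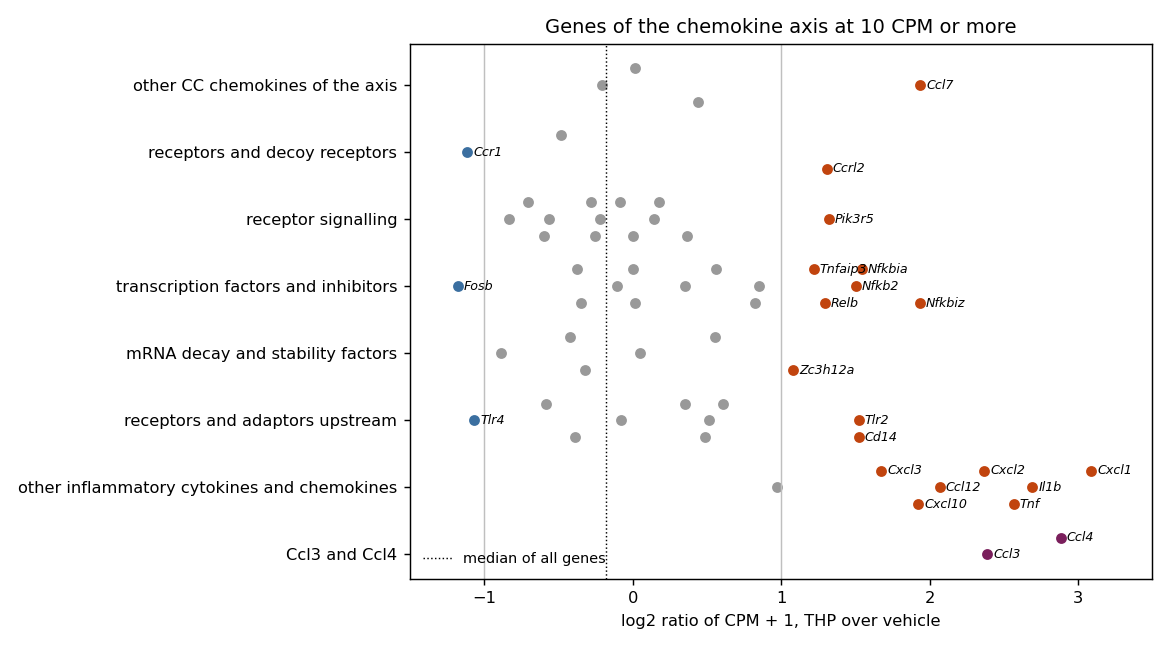
Log2 ratio of CPM + 1, THP over vehicle, of every list gene at 10 CPM or more (points; rows are the gene lists, vertical spread only separates points); grey lines mark the 2-fold bounds, and the dotted line the median of all genes, −0.18. Ccl3 (2.39) and Ccl4 (2.88) lie among the other inflammatory cytokines and chemokines, while 1 of 3 receptors passes the 2-fold rule in each direction.

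In single macrophage-like cells of the THP library at 5000 UMIs, Tnf was found in 52.7% of Ccl4-positive and 38.5% of Ccl4-negative cells. For Il1b the shares were 20.9% and 10.6%, and for Cxcl2 they were 85.1% and 71.9%. Ccl3-positive cells gave 51.9% for Tnf against 40.6% of Ccl3-negative cells. In the vehicle library Tnf was found in 17.8% of Ccl4-positive and 12.2% of Ccl4-negative cells. Of the 12 other inflammatory genes, 11 were found more often in Ccl4-positive than in Ccl4-negative THP macrophage-like cells, and Il6 less often. Il6 was found in 7 of these cells, and of the 11 genes Ccl22 was found in 6 and Il12b in 2. In vehicle macrophage-like cells 7 of the 12 genes were found more often and 3 less often. The 3 were Cxcl1 at 3.24% against 3.84%, Cxcl3 at 0.54% against 1.30%, and Ccl22, found in 1 cell. No such count over all genes is given here to set beside these. Among the 12 genes the largest difference was 14.4 percentage points with THP, for Ccl12, and 16.9 with vehicle, for Cxcl2.

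Across the 30 sums of a class in a library, the genes whose log2 level was most like that of Ccl3 were Cript, Clec4e, Hcar2, Chmp2a and Irak3, with Pearson correlations of 0.82, 0.80, 0.80, 0.79 and 0.76 among 11220 genes compared. Clec4e is a C-type lectin of myeloid cells and Hcar2 a receptor for nicotinic acid, and 4 of the 5 were highest in THP mature neutrophil-like cells. For Ccl4 they were Ninj1, 1110002J07Rik, Tnf, Pfn1 and Ftl1-ps1, at 0.91, 0.81, 0.81, 0.80 and 0.80. Ccl4 itself ranked 7 for Ccl3, at 0.75, and Ccl3 ranked 15 for Ccl4. These sums share their libraries and differ in depth, and the correlations are given as a description. Cript and Chmp2a were like Ccl3 across classes while their own log2 ratios between the libraries were 0.20 and 0.20, so likeness over classes and difference between libraries were separate features.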

How the data were processed

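The authors deposited 1 matrix of UMI counts per library, with software version 3.1.0 and format version 2 per the file headers; Cell Ranger, STAR, bcl2fastq and mm10 are named in the submitters' processing notes, without versions. Kept cells had at least 500 genes, 1000 UMIs and at most 10% mitochondrial UMIs. No doublet caller was run, so doublets remain. CPM are UMIs summed over kept cells per 1000000 UMIs, with exact Poisson 95% intervals; shares have exact Clopper-Pearson 95% intervals. Log2 ratios are of CPM + 1. Thinning drew UMIs without replacement, with fixed seeds. TMM and RLE factors came from edgeR 4.0.16, used for scaling only. Scripts ran in Python 3.11.15 with scipy 1.17.1 and were tested on simulated data.

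The members, lists and markers were chosen with earlier results of these data known. The named genes are the 2 members, the 5 genes most like each, annotated genes within 100 kb and list genes; list genes without a value in the text were computed too. One listed gene and the coding sequences are not reported here. The cuts of the classes, and the separation of mature neutrophil-like from S100a8 and S100a9 high cells, were set after seeing the data. Classes under 50 cells in a library were left out, and gates on eosinophil and erythroid markers and on Nrgn and Xcl1 were not applied. Coordinates and transcripts are from GENCODE M21 (GRCm38), 1-based. Transcript length was that of the annotated transcript. The smallest non-zero level a library can show is set by its total of UMIs.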

Additional observations from a re-analysis of the deposited data

Results flagged for a closer look

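The barcodes left out by the cell filter, 1070 with THP and 606 with vehicle, are shallow and were used only in the values over all deposited barcodes. Both genes were higher in those of the THP library than in those of the vehicle library. Ccl3 stood at 287 CPM in the THP barcodes (266 to 310, 662 UMIs) and at 71.3 CPM in the vehicle barcodes (58.2 to 86.6, 102 UMIs). Ccl4 stood at 206 CPM (188 to 225, 474 UMIs) and 25.2 CPM (17.6 to 34.9, 36 UMIs). In both libraries Ccl3 was higher here than in kept cells, at 184 and 34.5 CPM, and Ccl4 was not. What these barcodes hold was not tested.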

How the results depend on the processing

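The log2 ratios, share differences and amounts of Ccl3 and Ccl4 over all cells kept their direction in every alternative run; the list genes whose sign turned with TMM factors, and the amount of Ccl3 in osteoclast-like cells, are given above. The values below lay outside the counting interval of the reported value. With TMM and RLE factors the log2 ratio was 2.67 and 2.66 for Ccl3 and 3.16 and 3.16 for Ccl4, and 207 genes passed the 2-fold rule with either (138 higher and 69 lower) against 311 (73 higher and 238 lower). Without the top 5% of cells by UMIs, Ccl3 gave 2.34, and its amount per positive cell 0.26 and that of Ccl4 1.04 (log2). With the vehicle mix of classes the ratios were 2.33 and 2.60, the share differences 29.7 and 22.0 points, and the amount of Ccl3 0.64. As means over cells the ratios were 1.54 and 2.73, and without the 1% of cells richest in the gene 2.60 and 3.44. With all deposited barcodes the share differences were 30.4 and 27.0 points, and with at least 3 UMIs 23.7 and 20.4. Thinned to 5000 UMIs they were 24.7 and 23.2 points, with amounts of 0.65 and 0.76; thinned to 2000 UMIs they were 15.3 and 14.3 points, with an amount of 0.49 for Ccl4. The cause of these shifts was not tested, except that thinning lowers every share by its construction. The other alternatives stayed within the interval, or for counts within 1.5 times. Thinning to 2000 UMIs, leaving out shared barcodes and the neutrophil gate set in effect by S100a8 and S100a9 alone were added after seeing the data. Under that gate 26 of 26 pairs of class and gene were higher with THP, which is no independent evidence either. No paired analysis was possible because each group is 1 library. Depth limits the small classes most: Ccl4 in vehicle dendritic cell-like cells rests on 2 UMIs.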
